A study of Mus musculus with 4 samples.

Results

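The nuclear genes of respiratory complex I were examined in quadriceps RNA of WT and Mef2dα2 Eko mice. A gene was a member when its symbol began with Nduf followed by a, b, c, s or v and a digit, or was Ndufab1, and when it had at least 1 count. Ndufaf assembly factors were kept apart. This rule found 38 genes among the 24621 genes with any count, and all 38 passed the filter on low counts that left 16120 genes for testing. The fewest counts of any member in any mouse were 193, in Ndufa4l2, so no member was near the floor of 3 counts.

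RNA came from the quadriceps of 2 WT and 2 Mef2dα2 Eko sedentary male mice at about 20 weeks of age, with 1 polyA-selected library per mouse, here called WT 1, WT 2, Eko 1 and Eko 2. The Mef2dα2 Eko mice carry a CRISPR-Cas9 deletion of the α2 exon of Mef2d, a transcription factor gene of the MEF2 family, on both alleles and in every cell, and the WT mice have the exon. All came from a C57BL6/J background, were fed standard chow and had their muscles taken within the same hour. Which founder line gave these 4 mice is not given in the sources used here, so the comparison may stand for 1 line.

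Total counts were between 72626757 and 85176059 per mouse and overlapped between the genotypes. Counts of Mef2d itself were 19687 and 18393 in WT mice and 21695 and 17206 in Mef2dα2 Eko mice, and gene-level counts cannot show the deletion because they join the α1 and α2 exons. The 8 muscle fibre markers summed to between 115600 and 120400 CPM (TMM-normalized counts scaled to library totals of 1000000) in every mouse, so muscle fibre RNA was abundant as the tissue label has it, and none of the 42 marker genes measured was at 0 in any library. WT 1 stood apart from the other 3 libraries, with a chi-square per degree of freedom over genes between 119 and 215 for the pairs that hold it and between 35.5 and 42.0 for the rest, so no pair was alike within counting noise, and 20.7% of its counts came from mitochondrial DNA against 15.8% to 17.4% in the others.

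Complex I, or NADH:ubiquinone oxidoreductase, is the entry point of electrons from NADH into the respiratory chain. Its matrix arm holds the flavin, a chain of iron-sulfur clusters and the site that reduces ubiquinone, and its membrane arm pumps protons across the inner mitochondrial membrane. The core subunits of the matrix arm are nuclear genes, those of the membrane arm are encoded in mitochondrial DNA, and the many accessory subunits around them are nuclear. Muscle fibres rich in mitochondria, such as slow and oxidative fibres, hold much of the complex.

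Transcripts of complex I subunits were slightly lower in Mef2dα2 Eko than in WT quadriceps, and no single subunit passed the threshold. The summed level of the 38 genes was 3200 and 3315 CPM in the WT mice and 3080 and 3015 CPM in the Mef2dα2 Eko mice, a difference of -6.45% between the means. Both Mef2dα2 Eko mice thus lay below both WT mice in the sum. The log2 fold change (Mef2dα2 Eko over WT) was below 0 for 36 of the 38 genes, against 51.3% of all genes tested, and its median was -0.086, against -0.0051 over all genes. It ranged from -0.33 for Ndufs4 to 0.067 for Ndufa3.

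The genotypes were compared gene by gene with the quasi-likelihood test of edgeR (edgeR QL), with Benjamini-Hochberg adjustment over all genes tested. At a threshold of 0.05 on the adjusted p, 0 of the 38 genes were called, where 0.416% of all genes tested were (0.31% as lower and 0.105% as higher in Mef2dα2 Eko mice). At an unadjusted p below 0.05, 8 of the 38 were lower in Mef2dα2 Eko mice, where 6.41% of all genes were, and 0 were higher, where 5.15% of all genes were. Limma-voom called 0 of the 38, and DESeq2 and edgeR's likelihood ratio test each called 1, Ndufs4, where they called 1.97% and 1.94% of all genes. In 20 of the 38 genes (52.6%) both Mef2dα2 Eko mice lay below both WT mice, an order seen in 23% of all genes tested. In 0 of the 38 did both lie above both WT mice, against 20.8% of all genes, and in the other 18 the mice overlapped. With 2 mice against 2, an exact two-sided permutation test cannot give a p below 0.333, so no such test is given for single genes.

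The size of the shift depended on which WT mouse stood for the WT level. Without WT 1 the median log2 fold change was -0.14, 37 of 38 genes were below 0 (all genes 49.9%), and both Mef2dα2 Eko mice lay below WT 2 in 35 of 38 genes, an order seen in 36.6% of all genes against that single mouse. Without WT 2 the median was -0.032, 22 of 38 genes were below 0 (all genes 48.6%), and both Mef2dα2 Eko mice lay below WT 1 in 20 of 38 genes (all genes 36.6%) and above it in 10 (all genes 37.9%). A correction of each library's trend with transcript length brought the median to -0.038, the number below 0 to 24 (all genes 51.1%) and the number with an unadjusted p below 0.05 to 3, where 11.2% of all genes had one. Complex I transcripts are short, with a median length of 868 nt against 2822 nt over the 11856 genes above 1 CPM, and over those genes the log2 fold change was higher for longer transcripts (Spearman's rho 0.21, across genes, which are not independent replicates). With GC content rho was -0.29 over those genes. A like correction for GC content gave a median of -0.0715, with 34 of 38 genes below 0 (all genes 51.4%). With it, 8 of the 38 had an unadjusted p below 0.05, where 10.8% of all genes had one. In bulk RNA, fewer fibres of a type and less RNA per fibre cannot be told apart.

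**Figure D1:**
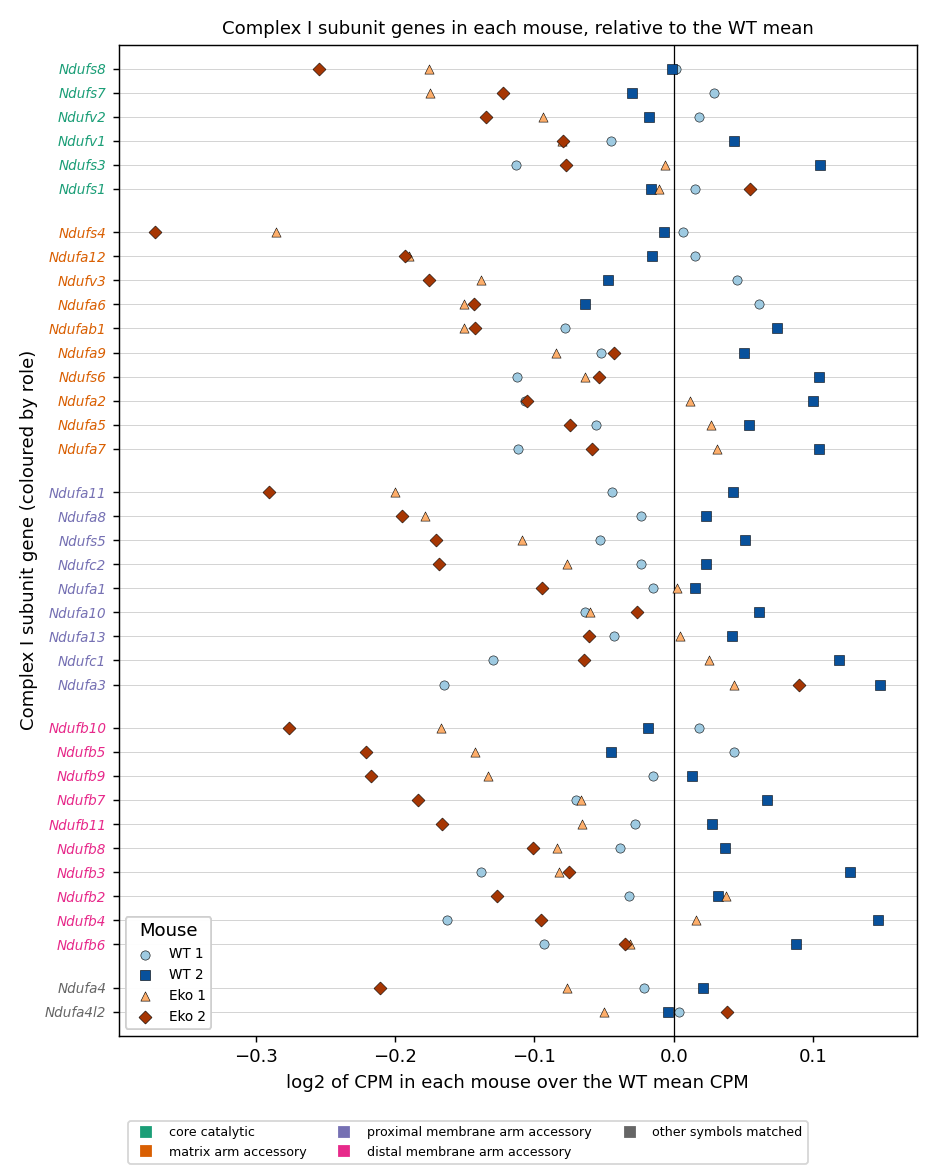
Log2 of the CPM in each mouse over the mean CPM of the WT mice (x axis), for 37 of the complex I subunit genes (y axis, grouped and coloured by role and ordered by log2 fold change within a role). Each marker is 1 mouse; the orange Mef2dα2 Eko markers lie left of both blue WT markers in 19 of the genes drawn, WT 2 is the highest mouse in 25 genes and Eko 2 the lowest in 20.

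Within a genotype the mice also differed. The median absolute log2 difference of the 38 genes was 0.087 between the WT mice and 0.068 between the Mef2dα2 Eko mice, and the median absolute log2 fold change between genotypes was 0.086. The fold change compares groups of 2 mice and the other values compare single mice, so these medians cannot be ranked against each other. WT 2 exceeded WT 1 in 26 of the 38 genes and Eko 2 exceeded Eko 1 in 12. WT 2 was the highest of the 4 mice in 25 genes and Eko 2 the lowest in 20, while WT 1 was the highest in 10 and the lowest in another 10.

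Ndufs4, an accessory subunit of the matrix arm that joins late in assembly and whose loss in mice is a model of mitochondrial encephalopathy, had the lowest log2 fold change of the 38 genes. Its level was 85.2 and 84.4 CPM in the WT mice and 69.6 and 65.5 CPM in the Mef2dα2 Eko mice. The WT mice lay close together and both Mef2dα2 Eko mice lay well below them. The log2 fold change was -0.33 (95% interval -0.49 to -0.17, standard error 0.067), a level 20.4% lower, with an adjusted p of 0.154 by edgeR QL with Benjamini-Hochberg adjustment. DESeq2 gave an adjusted p of 0.0128, edgeR's likelihood ratio test 0.0452 and the quasi-likelihood test with no filter on low counts 0.00631, whereas without Eko replicate 2 it was 0.434. Over the 16 alternatives run the log2 fold change lay between -0.39 and -0.29. The gene (ENSMUSG00000021764.8) spans positions 114287795 to 114388258 of chromosome 13 (GRCm38, minus strand), overlaps no other gene and shares no 31-base stretch with one.

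The promoters of the 4 subunits with the lowest log2 fold changes are shown because these transcripts were lower together in both Mef2dα2 Eko mice. They are RefSeq sequences of GRCm38.p6, from 250 bases before to 50 bases after the transcription start, written 5′ to 3′ along the gene. Capitals mark matches to the letters searched: GCGCATGC (NRF1), CCGGAAG (ETS factors), AAGATGGC (YY1), AAGGTCA (estrogen-related receptors) and CTATTTAT (MEF2), on both strands. The Ndufs4 promoter is at chr13:114388045-114388344 on the minus strand, that of Ndufa11 at chr17:56717512-56717811 on the plus strand, that of Ndufb10 at chr17:24724374-24724673 on the minus strand and that of Ndufs8 at chr19:3912725-3913024 on the minus strand.
Ndufs4: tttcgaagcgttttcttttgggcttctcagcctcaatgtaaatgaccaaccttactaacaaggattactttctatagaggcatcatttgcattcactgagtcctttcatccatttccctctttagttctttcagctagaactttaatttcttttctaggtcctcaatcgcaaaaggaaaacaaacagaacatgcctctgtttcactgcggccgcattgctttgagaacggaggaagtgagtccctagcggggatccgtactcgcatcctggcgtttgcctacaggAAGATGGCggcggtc
Ndufa11: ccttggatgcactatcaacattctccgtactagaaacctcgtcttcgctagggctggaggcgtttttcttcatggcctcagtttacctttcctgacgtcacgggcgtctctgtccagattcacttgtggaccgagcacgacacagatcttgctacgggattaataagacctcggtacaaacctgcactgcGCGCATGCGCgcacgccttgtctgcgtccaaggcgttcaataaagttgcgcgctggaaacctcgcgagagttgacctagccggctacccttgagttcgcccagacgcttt
Ndufb10: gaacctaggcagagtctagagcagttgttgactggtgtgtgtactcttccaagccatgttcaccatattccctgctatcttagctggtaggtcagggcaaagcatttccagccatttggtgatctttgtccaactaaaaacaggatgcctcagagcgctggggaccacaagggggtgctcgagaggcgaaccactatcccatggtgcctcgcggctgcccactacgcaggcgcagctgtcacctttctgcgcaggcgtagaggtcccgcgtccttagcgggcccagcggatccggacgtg
Ndufs8: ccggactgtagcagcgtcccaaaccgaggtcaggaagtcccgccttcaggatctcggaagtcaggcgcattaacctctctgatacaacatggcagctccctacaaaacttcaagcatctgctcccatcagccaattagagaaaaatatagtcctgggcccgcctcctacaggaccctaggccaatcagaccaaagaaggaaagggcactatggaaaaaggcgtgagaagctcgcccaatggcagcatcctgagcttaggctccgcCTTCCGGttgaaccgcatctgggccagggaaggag
The Ndufs4 promoter held the YY1 letters from base 36 to 43 after the start, the Ndufa11 promoter overlapping NRF1 letters on both strands from base -60 to -51, and the Ndufs8 promoter the ETS letters on the opposite strand from base 16 to 22. The Ndufb10 window held none of the 5.

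Promoters were found for 33 of the 38 genes, and none was found for Ndufs1, Ndufb9, Ndufa2 and Ndufa4l2, among others. The NRF1 letters stood in 3 of the 33 (9.09%) and in 3.05% of the promoters of all 27025 genes in the table. NRF1 is a regulator of many nuclear genes of the respiratory chain. The YY1 letters stood in 7 (21.2%, all genes 3.19%), the ETS letters in 4 (12.1%, all genes 9.93%) and the estrogen-related receptor letters in 3 (9.09%, all genes 5.38%). The MEF2 letters, of interest because the deleted exon belongs to a MEF2 factor, were in 0 of the 33 windows and in 1.27% of all promoters, and their absence says only that these letters are not in these windows. No member had matches to 2 of the motifs that shared a base, and a match is a run of letters, not a bound site. Other spellings of a motif would give other shares.

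The 7 core subunits of the matrix arm, which carry the catalytic centres, had a median log2 fold change of -0.080, and 6 of the 7 were below 0. In 5 of the 7 (71.4%) both Mef2dα2 Eko mice lay below both WT mice, against 23% of all genes tested. Their summed level was 1111 and 1121 CPM in WT and 1074 and 1078 CPM in Mef2dα2 Eko mice, a difference of -3.56% between the means. The median was -0.12 without WT 1, -0.026 without WT 2 and -0.049 with the length correction. With the GC correction it was -0.021, with all 7 below 0 and 3 lower in both Mef2dα2 Eko mice (all genes 22.3%).

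Ndufs8, which holds a pair of iron-sulfur clusters near the quinone site, was the lowest of the core. Its level was 44.8 and 44.7 CPM in WT mice and 39.6 and 37.5 CPM in Mef2dα2 Eko mice, with no overlap. For Ndufs8 the log2 fold change was -0.21 (95% interval -0.38 to -0.052, adjusted p = 0.318 by edgeR QL with Benjamini-Hochberg adjustment). Ndufs8 (ENSMUSG00000059734.7) spans positions 3908863 to 3912774 of chromosome 19 (minus strand) and overlaps no other gene.

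Ndufs7, which carries the last cluster before ubiquinone, stood at 76.6 and 73.6 CPM in WT mice and at 66.5 and 69.0 CPM in Mef2dα2 Eko mice, with a log2 fold change of -0.15 (standard error 0.067). Ndufv2, a subunit of the NADH-oxidising tip, stood at 125.9 and 122.8 CPM in WT and at 116.5 and 113.2 CPM in Mef2dα2 Eko mice, with a log2 fold change of -0.11 (standard error 0.064). Ndufv1, which binds NADH and the flavin, stood at 161.3 and 171.5 CPM in WT and at 157.4 and 157.5 CPM in Mef2dα2 Eko mice, with a log2 fold change of -0.080 (standard error 0.066). In these 3 genes the genotypes did not overlap, and their 95% intervals all included 0. With the GC correction the log2 fold changes were -0.059 for Ndufs7, -0.18 for Ndufv2 and -0.021 for Ndufv1. With the length correction they were -0.088, -0.085 and -0.049.

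Ndufs1 and Ndufs3 were close between the genotypes. Ndufs1, which holds most of the iron-sulfur clusters of the tip, stood at 242.7 and 237.4 CPM in WT and at 238.3 and 249.4 CPM in Mef2dα2 Eko mice, with a log2 fold change of 0.023 (95% interval -0.13 to 0.18). Ndufs3, a structural core subunit of the matrix arm, stood at 85.3 and 99.3 CPM in WT and at 91.9 and 87.5 CPM in Mef2dα2 Eko mice, with a log2 fold change of -0.041 (95% interval -0.25 to 0.17). The mice of the genotypes overlapped in Ndufs1 and Ndufs3, and in Ndufs3 the WT mice were farther apart than the genotypes. Ndufs1 overlaps Eef1b2 and Ndufs3 overlaps Kbtbd4 on the other strand, and a strand setting for counting is not given in the sources used here.

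**Figure D2:**
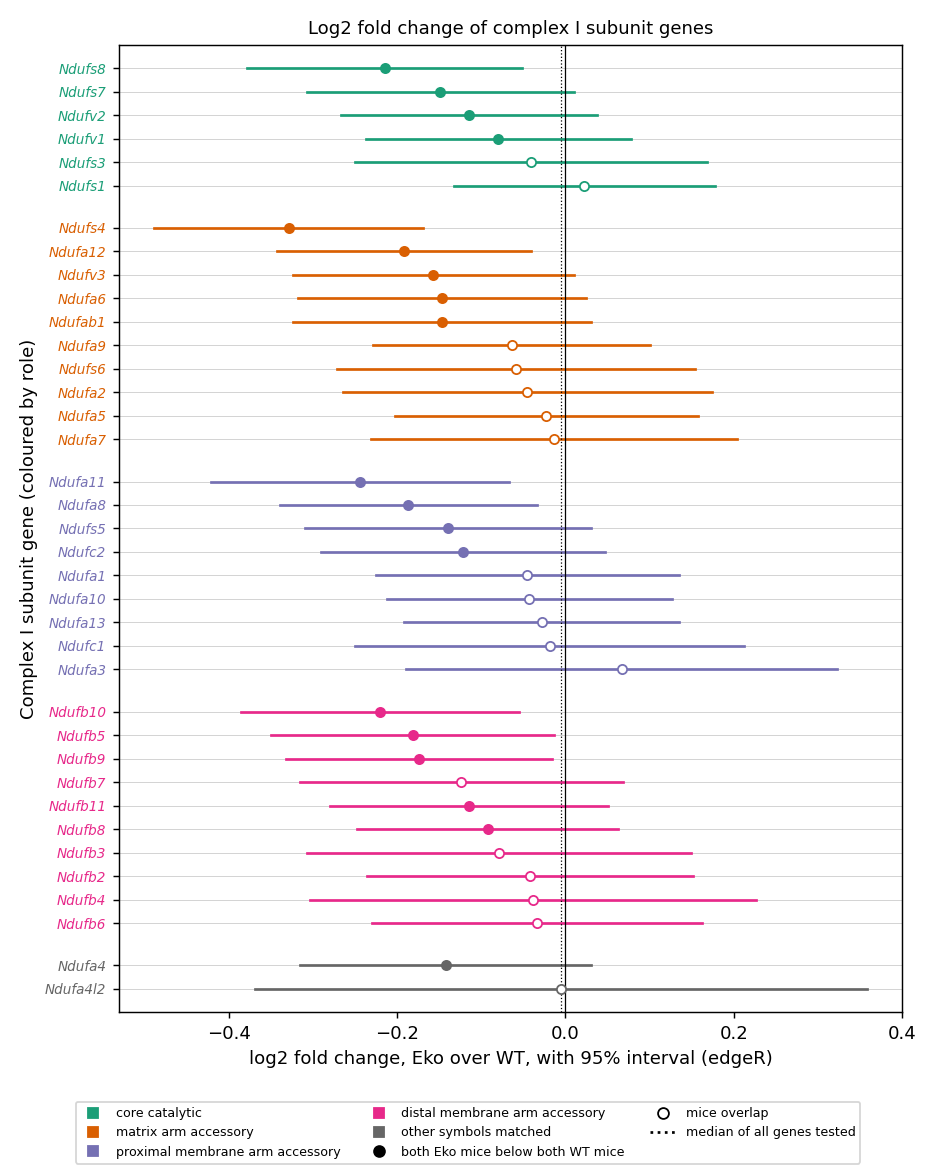
Log2 fold change of Mef2dα2 Eko over WT (x axis) with its 95% interval from the edgeR QL fit for 37 of the genes (y axis, grouped and coloured by role). Filled points are the 19 genes in which both Mef2dα2 Eko mice lay below both WT mice, open points the 18 in which they overlapped, and the dotted line is the median of all genes tested, -0.0051; 8 intervals, from Ndufs4 to Ndufb9, lie wholly below 0.

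All 10 accessory subunits of the matrix arm had a log2 fold change below 0, with a median of -0.11. In 5 of the 10 (Ndufs4, Ndufa12, Ndufv3, Ndufa6 and Ndufab1) both Mef2dα2 Eko mice lay below both WT mice (all genes 23%). Their summed level was 611.0 and 634.9 CPM in WT and 572.1 and 562.1 CPM in Mef2dα2 Eko mice, a difference of -8.97%. Without WT 2, 5 of the 10 were below 0 and the median was -0.025, and with the length correction 6 were below 0 and the median was -0.053.

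Ndufa12, which takes the place of the assembly factor Ndufaf2 in the finished complex, stood at 83.5 and 81.7 CPM in WT mice and at 72.4 and 72.3 CPM in Mef2dα2 Eko mice. Both pairs were tight and the groups lay apart. This gave a log2 fold change of -0.19 (95% interval -0.34 to -0.041, adjusted p = 0.332 by edgeR QL with Benjamini-Hochberg adjustment). Ndufa12 (ENSMUSG00000020022.17, chromosome 10 from 94198720 to 94221443, plus strand) shares 29.3% of its 31-base stretches with the processed pseudogene Gm15920 on chromosome 5. The deposited counts gave Gm15920 between 40% and 45.1% of the sum of both genes, so the level of Ndufa12 depends on how RSEM divided their reads. The log2 fold change of Gm15920 was -0.27, and adding the pseudogene copies to their members left 0 of the 38 genes called and a median of -0.086.

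Ndufv3 (log2 fold change -0.16), Ndufa6 (-0.15) and Ndufab1 (-0.15) came next in the matrix arm. Ndufab1 is the mitochondrial acyl carrier protein, which also serves fatty acid synthesis in the mitochondrion and binds Ndufa6 in the matrix arm and Ndufb9 in the membrane arm. Its level was 94.4 and 104.9 CPM in WT mice and 89.8 and 90.3 CPM in Mef2dα2 Eko mice. Its near-copy Gm4459 took between 17.3% and 19.9% of the sum of the pair. For Ndufa9, Ndufs6, Ndufa2, Ndufa5 and Ndufa7 the mice of the genotypes overlapped, with log2 fold changes between -0.063 and -0.014. Ndufa7, among the 5 genes with the highest log2 fold change, stood at 31.2 and 36.2 CPM in WT and at 34.4 and 32.3 CPM in Mef2dα2 Eko mice, so both Mef2dα2 Eko mice lay between the WT mice.

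Of the 9 accessory subunits around the proximal membrane arm, which surround the mitochondrially encoded subunits next to the quinone site, 8 had a log2 fold change below 0, with a median of -0.045. In 4 of the 9 (Ndufa11, Ndufa8, Ndufs5 and Ndufc2) both Mef2dα2 Eko mice lay below both WT mice (all genes 23%). The summed level was 541.8 and 585.0 CPM in WT and 538.0 and 527.2 CPM in Mef2dα2 Eko mice, a difference of -5.47%, and Eko 1 was close to WT 1. The median was -0.14 without WT 1, and without WT 2 it was -0.015 with 5 of the 9 below 0. With the length correction it was -0.020, also with 5 of the 9 below 0.

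Ndufa11, a membrane subunit at the contact with complex III, stood at 33.9 and 36.0 CPM in WT mice and at 30.4 and 28.6 CPM in Mef2dα2 Eko mice. The genotypes did not overlap. Its log2 fold change was -0.24 (95% interval -0.42 to -0.067, adjusted p = 0.298 by edgeR QL with Benjamini-Hochberg adjustment). Ndufa11 (ENSMUSG00000002379.7, chromosome 17 from 56717767 to 56722141, plus strand) overlaps Vmac on the other strand and shares 20.4% of its 31-base stretches with Ndufa11b, annotated as a processed pseudogene on chromosome 16, for which the counts were not analysed here.

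Ndufa8, an accessory subunit with paired cysteine motifs imported into the intermembrane space, stood at 80.9 and 83.5 CPM in WT mice and at 72.6 and 71.8 CPM in Mef2dα2 Eko mice, with a log2 fold change of -0.19 (95% interval -0.34 to -0.034). It overlaps no other gene and shares no 31-base stretch with one. At the other end, Ndufa3 had the highest log2 fold change of the 38 genes, with 29.1 and 36.2 CPM in WT and 33.6 and 34.7 CPM in Mef2dα2 Eko mice. Its log2 fold change was 0.067 (95% interval -0.19 to 0.32), the WT mice were farther apart than the genotypes, and without WT replicate 1 the value was -0.081. Ndufc1 stood at 31.7 and 37.7 CPM in WT and at 35.3 and 33.2 CPM in Mef2dα2 Eko mice, with a log2 fold change of -0.019 with the Mef2dα2 Eko mice between the WT mice. Ndufa3 overlaps Tfpt on the other strand. For Ndufa1, Ndufa10 and Ndufa13 the genotypes overlapped too, with log2 fold changes between -0.045 and -0.028.

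All 10 accessory subunits of the distal membrane arm, the Ndufb group, had a log2 fold change below 0, with a median of -0.10. In 5 of the 10 (Ndufb10, Ndufb5, Ndufb9, Ndufb11 and Ndufb8) both Mef2dα2 Eko mice lay below both WT mice (all genes 23%). The summed level was 800.6 and 834.9 CPM in WT and 765.3 and 728.1 CPM in Mef2dα2 Eko mice, a difference of -8.68%. Without WT 1 the median was -0.16, and without WT 2 it was -0.039 with 6 of the 10 below 0. Without WT 2, both Mef2dα2 Eko mice lay above WT 1 in 3 of the 10 (all genes 37.9%). With the length correction 7 were below 0 and the median was -0.042. Ndufb1 was not analysed here.

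Ndufb10, a subunit with disulfide bonds on the intermembrane face, stood at 129.6 and 126.4 CPM in WT mice and at 114.0 and 105.7 CPM in Mef2dα2 Eko mice. The genotypes lay apart. The log2 fold change was -0.22 (95% interval -0.39 to -0.056, adjusted p = 0.311 by edgeR QL with Benjamini-Hochberg adjustment). Ndufb10 (ENSMUSG00000040048.14, chromosome 17 from 24722060 to 24724478, minus strand) overlaps no other gene and shares no 31-base stretch with one.

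Ndufb5 stood at 73.7 and 69.3 CPM in WT mice and at 64.8 and 61.3 CPM in Mef2dα2 Eko mice, with a log2 fold change of -0.18 (standard error 0.071), and it overlaps Mrpl47 on the other strand. Ndufb9, which binds the acyl carrier protein, stood at 138.1 and 140.8 CPM in WT mice and at 127.2 and 120.0 CPM in Mef2dα2 Eko mice, with a log2 fold change of -0.17 (standard error 0.067). Neither gene overlapped between the genotypes in level, and neither passed the threshold, with adjusted p-values of 0.403 and 0.396 by edgeR QL with Benjamini-Hochberg adjustment. Ndufb8, a subunit often used as a protein marker of complex I, stood at 165.4 and 174.3 CPM in WT mice and at 160.3 and 158.4 CPM in Mef2dα2 Eko mice, with a log2 fold change of -0.092 (95% interval -0.25 to 0.063). Ndufb9 shares 25.5% of its 31-base stretches with the overlapping same-strand gene Gm49356, and Ndufb8 shares 16% with Gm20538, to which the deposited table gave 0 counts. For Ndufb7, Ndufb3, Ndufb2, Ndufb4 and Ndufb6 the genotypes overlapped.

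The rule also took in Ndufa4 and Ndufa4l2, whose products are named after complex I but are counted with complex IV or as a paralog of it. Ndufa4, found in complex IV, stood at 133.3 and 137.3 CPM in WT mice and at 128.3 and 116.9 CPM in Mef2dα2 Eko mice, with a log2 fold change of -0.14 (95% interval -0.32 to 0.031). Ndufa4l2, its paralog induced by low oxygen, stood at 2.64 and 2.62 CPM in WT mice and at 2.54 and 2.70 CPM in Mef2dα2 Eko mice, with a log2 fold change of -0.0057 (95% interval -0.37 to 0.36). In Ndufa4 the genotypes did not overlap, and in Ndufa4l2, which is scarce, they did. Ndufa4l2 overlaps Shmt2 on the other strand.

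Although subunits are built into the complex in fixed numbers, their transcript levels per length were uneven. On the scale of CPM per kilobase of the representative transcript, averaged over the 4 mice, Ndufb8 was the highest at 242.1 (range over mice 233.0 to 256.3). Ndufa4 stood at 211.4 (range 191.6 to 225.0), and these 2 genes did not overlap over the mice. Ndufb9 stood at 186.9 and Ndufb10 at 162.5. At the low end Ndufb4 stood at 27.5, Ndufc1 at 27.6, Ndufv3 at 30.2, Ndufs8 at 42.4 and Ndufs4 at 44.9 CPM per kilobase, and the first 3 of these overlapped with each other over the mice.

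Ndufa4l2 was far below the rest, at 2.81 CPM per kilobase (range 2.72 to 2.89). The spread among genes was thus much wider than the difference of any gene between genotypes. The level per length depends on the transcript chosen: with the longest principal transcript in place of the best supported one, Ndufb2 came to 7.33 in place of 70.4 and Ndufab1 to 27.3 in place of 67.0 CPM per kilobase. Over the 38 genes, Spearman's rho of the log2 fold change was -0.20 with the mean CPM, -0.020 with transcript length and -0.13 with GC content, values given as descriptions over genes measured in the same 4 libraries.

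**Figure D3:**
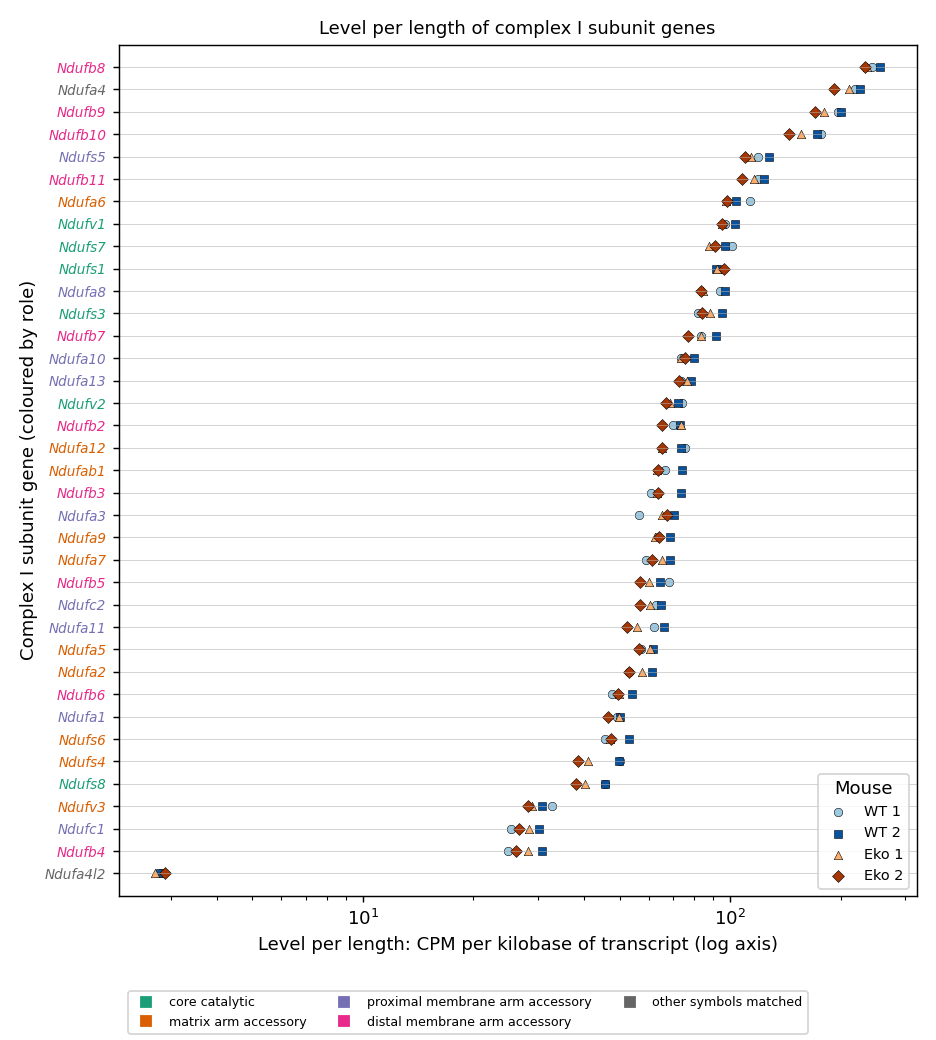
Level of 37 of the genes per length, in CPM per kilobase of the representative transcript on a log axis (x axis), in each mouse (markers), ordered by the mean over the 4 mice (y axis, gene names coloured by role). Levels run from 2.81 for Ndufa4l2 to 242.1 for Ndufb8, and the 4 mice of a gene lie close together on this scale.

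Several members share sequence with copies elsewhere in the genome. Copies that had counts of their own were Gm15920 for Ndufa12, Gm12251 for Ndufs3 (between 19.2% and 20.7% of the sum of the pair), Gm4459 and Ndufab1-ps for Ndufab1, BC002163 for Ndufs5 (between 9.16% and 13.6%) and Gm6444 for Ndufb11 (between 1.05% and 1.27%). The log2 fold changes of these 6 processed pseudogenes lay between -0.36 and -0.069, and none passed the threshold by edgeR QL. Of the 38 genes, 16 overlap a gene on the other strand, whose reads could have been counted for them.

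The assembly factors of complex I, which build the complex without staying in it, had a median close to that of all genes. All 17 that were measured were tested, 0 were called, and their median log2 fold change was -0.0055, with 10 below 0 and 7 above. Both Mef2dα2 Eko mice lay below both WT mice in 4 of them (23.5%, all genes 23%) and above in 2 (11.8%, all genes 20.8%). The sign of this median turned with the mice used, to -0.060 without WT 1 and 0.074 without WT 2, and it was 0.014 with the length correction. The lowest of these 17 was Ndufaf4, an early factor of the matrix arm, at 50.4 and 48.1 CPM in WT mice and 43.2 and 43.8 CPM in Mef2dα2 Eko mice (log2 fold change -0.18, adjusted p = 0.384 by edgeR QL with Benjamini-Hochberg adjustment). The highest of these 17 was Nubpl, which delivers iron-sulfur clusters, at 2.23 and 2.80 CPM in WT and 2.75 and 3.06 CPM in Mef2dα2 Eko mice (log2 fold change 0.21), with overlap. The difference between the 2 lists was not tested. The factors Coa1, Dmac1 and Dmac2 were not matched by these symbols, so any row they have under another symbol is not in this list.

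The 7 subunits encoded in mitochondrial DNA, which form the core of the membrane arm, were in sum highest in WT 1 and lowest in WT 2, with the Mef2dα2 Eko mice between them. Their summed level was 99280 CPM in WT 1, 69910 in WT 2, 78870 in Eko 1 and 74830 in Eko 2. The log2 fold changes ran from -0.24 for mt-Nd1 to 0.25 for mt-Nd6 with a median of -0.064, and 0 of the 7 were called. Without WT replicate 1, all 7 were above 0, with a median of 0.12. Without WT replicate 2 the median was -0.30, and mt-Nd1 and mt-Nd2 were called as lower, 2 of the 7, where 1.79% of all genes were called (adjusted p = 0.038 and 0.0401 by edgeR QL with Benjamini-Hochberg adjustment). Mt-Nd1 stood at 24540 and 17020 CPM in WT mice and at 17810 and 17440 CPM in Mef2dα2 Eko mice.

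Mt-Nd6, the one subunit encoded on the light strand, was the only one of the 7 in which the genotypes did not overlap. It stood at 3273 and 3661 CPM in WT mice and at 4320 and 3931 CPM in Mef2dα2 Eko mice, with a log2 fold change of 0.25 (95% interval 0.027 to 0.47, adjusted p = 0.384 by edgeR QL with Benjamini-Hochberg adjustment). Removing all mitochondrial rows before normalization moved the median of the 38 nuclear genes to -0.078. It left 20 of them lower in both Mef2dα2 Eko mice (all genes 21.8%).

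The nuclear subunits of complexes II to V had values close to those of complex I. Of 49 genes measured, 46 were tested and 0 called, with a median log2 fold change of -0.097 and 40 below 0 (all genes 51.3%). Both Mef2dα2 Eko mice lay below both WT mice in 24 of them (52.2%, all genes 23%) and above in 1 (all genes 20.8%). At an unadjusted p below 0.05, 6 were lower, where 6.41% of all genes were. With the length correction the median was -0.042 and 28 of the 44 tested were below 0 (all genes 51.1%). Both Mef2dα2 Eko mice then lay below both WT mice in 12 (27.3%), against 22.3% of all genes. Without WT 2 the median was -0.034. Both Mef2dα2 Eko mice then lay below WT 1 in 24 of 45 genes (all genes 36.6%) and above it in 12 (all genes 37.9%). Leaving out pseudogenes and factors that are not subunits gave a median of -0.097 over 44 genes. The difference between these lists and complex I was not tested.

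Atp5g1, a gene for the c-ring of ATP synthase, stood at 165.2 and 160.1 CPM in WT mice and at 134.0 and 127.4 CPM in Mef2dα2 Eko mice, with a log2 fold change of -0.32 (adjusted p = 0.161 by edgeR QL with Benjamini-Hochberg adjustment). DESeq2 called it (adjusted p = 0.00964), as did edgeR QL with no filter on low counts (adjusted p = 0.00674). It was named after its values were seen, because the gene with the lowest fitted value, Cox6b2, a testis form of a complex IV subunit, had between 0 and 11 counts in a library and no usable fold. The highest was Sdhc, a membrane anchor of complex II, at 163.4 and 174.7 CPM in WT and 177.1 and 174.9 CPM in Mef2dα2 Eko mice, with a log2 fold change of 0.058.

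**Figure D4:**
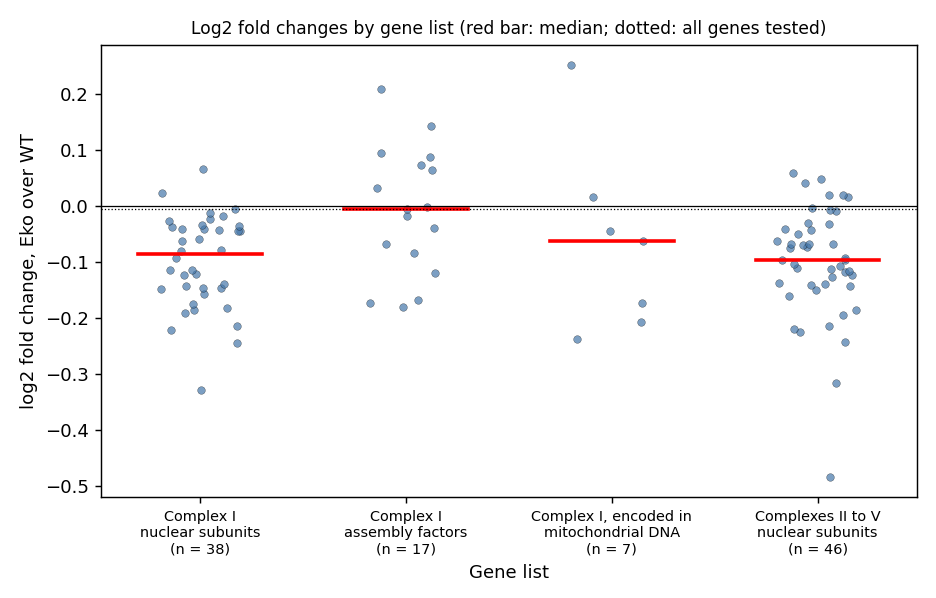
Log2 fold change of Mef2dα2 Eko over WT (y axis) for each gene tested in 4 lists (x axis), with the median as a red bar and the median of all genes tested, -0.0051, as a dotted line. Medians are -0.086 for nuclear complex I subunits, -0.0055 for assembly factors, -0.064 for mitochondrially encoded subunits and -0.097 for complexes II to V; the lowest point, Cox6b2, rests on at most 11 counts in a library.

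Markers of fibre types and of other cells also varied among the 4 mice. The 7 slow fibre markers summed to 382.7 CPM in WT 1, 884.3 in WT 2, 589.0 in Eko 1 and 376.8 in Eko 2, so the mouse with the highest sum of complex I transcripts, WT 2, and that with the lowest, Eko 2, were also the highest and lowest in slow fibre markers, while WT 1 was low in these markers. Of the 7, 6 had a log2 fold change below 0 (all genes 51.3%) and 0 were called (all genes 0.416%). Their part in the difference in complex I genes was not tested. Among fast myosin genes, Myh2, of oxidative fast fibres, stood at 1576 and 1709 CPM in WT mice and at 1264 and 1041 CPM in Mef2dα2 Eko mice (log2 fold change -0.51, adjusted p = 0.161 by edgeR QL with Benjamini-Hochberg adjustment), and Myh1 stood at 4967 and 3984 CPM in WT mice and at 3476 and 3121 CPM in Mef2dα2 Eko mice (log2 fold change -0.44, adjusted p = 0.261), without overlap in either gene. Myh4, of glycolytic fibres, stood at 64360 CPM in both WT mice and at 65460 and 69590 CPM in Mef2dα2 Eko mice (log2 fold change 0.069). These 3 myosins were chosen for naming after their values were seen.

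The 6 adipocyte markers summed to 81.6 and 31.5 CPM in WT mice and to 26.5 and 11.5 CPM in Mef2dα2 Eko mice. Cfd held much of that sum, at 48.5 and 16.9 CPM in WT and 8.61 and 5.72 CPM in Mef2dα2 Eko mice. Of the 6, 5 had a log2 fold change below 0 (all genes 51.3%), and Lep was at 0.21. In Adipoq, Plin1, Cidec and Lep the genotypes overlapped. The 4 macrophage markers summed to 17.2 and 13.1 CPM in WT and 13.3 and 9.05 CPM in Mef2dα2 Eko mice. Endothelial markers (4 genes) summed to between 118.8 and 137.3 CPM, fibroblast markers (4 genes) to between 262.7 and 340.7 CPM and blood markers (5 genes) to between 107.6 and 111.3 CPM, with overlap of the genotypes except that Schwann cell markers (4 genes) were 22.7 and 25.6 CPM in WT and 28.2 and 34.4 CPM in Mef2dα2 Eko mice. Pax7, of satellite cells, was between 2.31 and 3.05 CPM. None of the 42 markers was called by edgeR QL, where 0.416% of all genes were. At an unadjusted p below 0.05 there were 12 of the 42, against 11.6% of all genes. The part of these markers in the result was not tested.

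**Figure D5:**
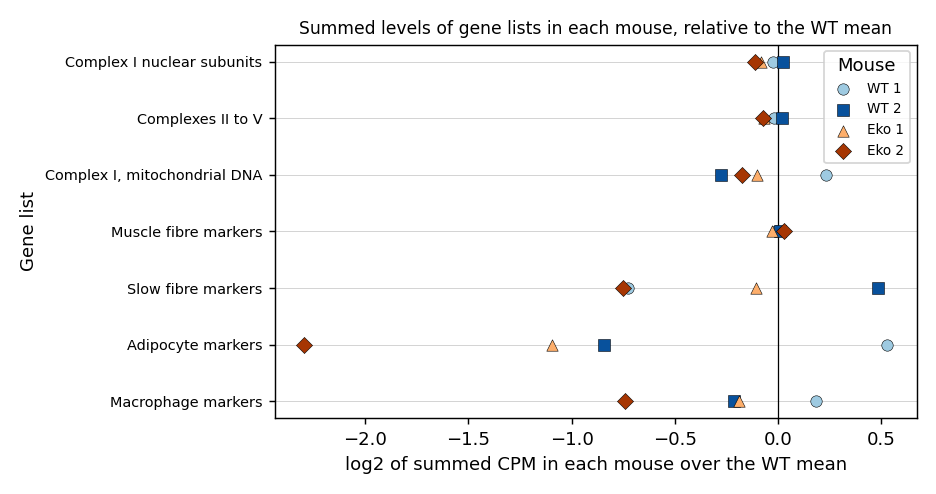
Log2 of the summed CPM of a gene list in each mouse over the mean of the WT mice (x axis), for 7 lists (y axis), with 1 marker per mouse. Sums of complex I and of complexes II to V differ little among mice and are lowest in the Mef2dα2 Eko mice, mitochondrially encoded subunits are highest in WT 1, slow fibre markers are highest in WT 2 (884.3 CPM) and adipocyte markers run from 81.6 CPM in WT 1 to 11.5 CPM in Eko 2.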

How the data were processed

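PolyA-selected RNA of 4 quadriceps was sequenced from a stranded kit. The authors aligned reads to mm10 (STAR 2.6.1a in the submitters' processing notes), and the deposited values are expected counts per gene from RSEM with an Ensembl GRCm38 annotation, not normalized. All deposited expected counts were whole, so rounding altered none. Genotypes came from the labels.

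Counts were analysed in R 4.3.3 with edgeR 4.0.16 (TMM factors, default low count filter, quasi-likelihood test, genotype as the sole term) over 16120 genes, with Benjamini-Hochberg adjustment and a threshold of 0.05. Log2 fold changes are Mef2dα2 Eko over WT. CPM are counts per 1000000 of the TMM-scaled total. Intervals are 95%. The scripts were tested on simulated data. The floor of 3 counts covers counting error only.

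Positions, lengths and shared 31-base stretches came from GENCODE M21 on GRCm38, whose gene limits can differ from the authors' annotation, and promoters from RefSeq (GRCm38.p6). Alternatives were RLE and upper-quartile factors, no filter, at least 1 CPM in 2 libraries, the likelihood ratio test, limma-voom 3.58.1, DESeq2 1.42.0, a replicate block, GC and length offsets and leaving out each mouse. Adding pseudogene copies and removing mitochondrial rows were chosen after seeing the data.

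The members and gene lists were chosen with earlier results of these data known. Named in full were the core subunits, every member with an adjusted p below 0.05 (0 here), the 5 highest and 5 lowest log2 fold changes, the highest and lowest level per kilobase, and from other lists called genes and the extremes, with members at an unadjusted p below 0.05 added afterwards. The values of 1 gene are not reported here, though it stays in the fits and in counts, sums and medians over lists.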

Additional observations from a re-analysis of the deposited data

How the results depend on the processing

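The 16 alternatives left no complex I gene called, except that Ndufs4 was called (1 gene) with no low count filter, with the likelihood ratio test and with DESeq2. Those settings called 3.25%, 1.94% and 1.97% of all genes. Without 1 mouse, 0 were called in each case. Over the whole table, 67 genes were called (50 lower), against 799 with no low count filter (496 lower), 23 with at least 1 CPM in 2 libraries, 312 with the likelihood ratio test (198 lower), 318 with DESeq2 (186 lower) and 38 with the GC offset (28 lower), and between 99 and 299 without 1 mouse (99 without WT replicate 1, 299 without WT replicate 2). The number of complex I genes lower in both Mef2dα2 Eko mice was 20 (all genes 23%). It was 17 under the length offset and 19 under the GC offset (all genes 22.3% in each). Under the 1 CPM filter it was 21 (all genes 24.1%) and with upper-quartile factors 22 (all genes 23.4%). Without 1 mouse it was between 20 and 35, where 34.9% to 36.8% of all genes showed that order. The median log2 fold change was -0.086, -0.038 with the length offset, -0.0715 with the GC offset, and between -0.14 and -0.032 without 1 mouse. The causes were not tested.

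The labels number the mice of each genotype, but these are different animals, and over the genes tested the deviations of same-numbered mice correlated at 0.18. With a replicate block, 186 genes were called over the table (136 lower) and 0 of the 38 complex I genes were called. The median of the 38 was -0.085, with 20 lower in both Mef2dα2 Eko mice (all genes 23%).

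Of the 304 values of 19 complex I genes followed one by one over the alternatives, 282 kept their direction and their side of the threshold, 3 (Ndufs4) newly passed it and 19, in 6 genes near 0, turned sign. Ndufa4l2 came to 0.0022 with RLE factors, 0.0021 with DESeq2, 0.074 with the GC offset, 0.050 with the length offset and 0.0028 without mitochondrial rows, and between -0.049 and 0.052 without 1 mouse. Ndufa7 came to 0.032 and 0.059 with the GC and length offsets and between -0.12 and 0.11 without 1 mouse. Ndufc1 came to 0.025 with the length offset, 0.13 without WT replicate 2 and 0.026 without Eko replicate 2, and Ndufs3 to 0.012 with the length offset and between -0.15 and 0.087 without 1 mouse. Ndufs1 came to -0.011 with the GC offset and between -0.010 and 0.069 without 1 mouse, and Ndufa3 to between -0.081 (without WT replicate 1) and 0.25 (without WT replicate 2).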
